A study of Arabidopsis thaliana with 12 samples.

Results

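The WRKY transcription factors of *A. thaliana* are described here in shoots treated for 1 h with progesterone or testosterone. The members were the rows of the deposited counts table whose locus identifier is on a list of 46 WRKY loci, which are 46 of the 38618 loci of that table. The list covers only part of the family. Loci of the table annotated as WRKY number 73, and 45 of them are members. In edgeR, WRKY31 was the only member called in either steroid comparison (DESeq2 also called WRKY45 and WRKY55), with 1.11 ± 0.222 CPM in testosterone-treated shoots and 0.198 ± 0.0746 CPM in mock-treated shoots (SD, n = 4 each). The study lists WRKY31 as reduced by both steroids, so the direction given here rests on the sample labels. The median log2 fold change of the stress-inducible members was below 0 in both treatments, and that difference from the mock treatment was smaller when a single mock library, DMSO replicate 2, was left out.

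All plants were Col-0 wild type. The PO group received 10 µM progesterone in 0.12% DMSO, the TO group 10 µM testosterone in the same amount of DMSO, and the DMSO group 0.12% DMSO alone, each for 1 h and with 4 biological replicates (12 libraries). Plants were 7 days old when moved to poor nutrient medium and adapted for 2 days before treatment, while another field of the labels gives 10 days as the age at transfer. The labels name leaves as the harvested tissue and the study speaks of shoots, so each library is a mixture of leaf cell types, in which fewer cells of a type and less RNA per cell cannot be told apart.

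WRKY proteins are a large plant family of DNA-binding regulators, named after the amino acids that open their zinc-finger domain. They bind the W-box, a short DNA element around TTGAC, and many of them are themselves transcribed within minutes of touch, wounding, pathogen signals or oxidative stress, downstream of MAP kinases. The family is divided by the number and the type of its zinc fingers into subgroup I, subgroups IIa to IIe and subgroup III, and its members act in defence, senescence, abscisic acid responses and phosphate nutrition.

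The coding sequences of all 46 members, taken from the RefSeq annotation of TAIR10.1, encoded the WRKY heptapeptide. The 8 members of subgroup I carried 2 such domains and the other 38 carried 1. The codons are shown for members on which the results turn, since they identify the loci as family members, and the sixth of the 7 codons shown is in capitals. This codon is a glutamine codon in the usual heptapeptide and a lysine codon in the variant that WRKY50 and WRKY51 carried.
WRKY31, chromosome 4: tggagaaagtacggaCAAaaa
WRKY33, first domain, chromosome 2: tggagaaagtacggaCAAaaa
WRKY33, second domain, chromosome 2: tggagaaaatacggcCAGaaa
WRKY40, chromosome 1: tggaggaaatatggaCAGaaa
WRKY45, chromosome 3: tggaggaagtacggcCAAaaa
WRKY50, chromosome 5: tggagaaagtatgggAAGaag

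Because WRKY genes are often bound by WRKY proteins, the 300 bases before each annotated gene start in TAIR10.1 were searched for the W-box, written TTGACC or TTGACT, on both strands. It was found before 20 of the 46 members (43.5%), and before 32.3% of the 27443 protein-coding genes of chromosomes 1 to 5. Of the 18 stress-inducible members 12 (66.7%) had at least 1 W-box and 7 (38.9%) had 2 or more, which 7.91% of all genes had. Windows of 5 members are shown, 5′ to 3′ on the strand of the gene, with each W-box in capitals, so that a box on the other strand reads GGTCAA or AGTCAA. WRKY33, WRKY15 and WRKY53 are stress-inducible members with 3, 2 and 2 boxes, and WRKY31 and WRKY40 had none in this window. A match is a description of these letters only, and no match says nothing on whether a factor binds.
WRKY33, chr2:16107935-16108234, + strand: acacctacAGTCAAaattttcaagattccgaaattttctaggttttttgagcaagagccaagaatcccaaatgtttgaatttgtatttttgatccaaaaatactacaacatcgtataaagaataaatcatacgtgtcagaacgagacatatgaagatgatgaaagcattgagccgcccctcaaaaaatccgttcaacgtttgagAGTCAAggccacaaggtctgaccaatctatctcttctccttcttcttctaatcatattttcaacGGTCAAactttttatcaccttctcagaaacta
WRKY15, chr2:9924586-9924885, + strand: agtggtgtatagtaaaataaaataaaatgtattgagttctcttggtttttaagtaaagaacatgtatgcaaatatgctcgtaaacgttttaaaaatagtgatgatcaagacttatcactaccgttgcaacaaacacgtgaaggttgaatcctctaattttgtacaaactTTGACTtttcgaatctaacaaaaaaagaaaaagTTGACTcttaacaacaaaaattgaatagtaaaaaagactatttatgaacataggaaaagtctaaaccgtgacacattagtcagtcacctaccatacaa
WRKY53, chr4:12393983-12394282, - strand: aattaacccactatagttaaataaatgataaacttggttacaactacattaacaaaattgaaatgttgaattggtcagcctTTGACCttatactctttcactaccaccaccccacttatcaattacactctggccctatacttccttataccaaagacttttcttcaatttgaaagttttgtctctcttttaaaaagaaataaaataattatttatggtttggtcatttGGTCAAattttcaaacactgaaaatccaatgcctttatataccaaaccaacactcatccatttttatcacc
WRKY31, chr4:11694591-11694890, - strand: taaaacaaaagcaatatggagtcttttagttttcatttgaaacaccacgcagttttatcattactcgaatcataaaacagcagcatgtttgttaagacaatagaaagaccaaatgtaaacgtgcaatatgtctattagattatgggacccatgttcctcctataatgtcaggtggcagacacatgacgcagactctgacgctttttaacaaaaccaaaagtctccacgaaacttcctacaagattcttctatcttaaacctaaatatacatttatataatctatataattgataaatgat
WRKY40, chr1:30383261-30383560, + strand: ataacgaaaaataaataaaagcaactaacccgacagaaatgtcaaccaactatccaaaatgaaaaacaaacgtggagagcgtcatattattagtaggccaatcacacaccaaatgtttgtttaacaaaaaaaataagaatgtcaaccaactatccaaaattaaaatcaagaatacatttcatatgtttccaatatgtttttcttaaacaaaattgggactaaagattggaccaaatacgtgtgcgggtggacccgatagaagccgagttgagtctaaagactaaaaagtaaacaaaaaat

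Total counts were 45185769 to 63445014 in the PO libraries, 41036335 to 51856000 in the TO libraries and 50443138 to 60728111 in the DMSO libraries. Levels are given as CPM, read counts scaled to a common library size with TMM factors, on which 3 counts correspond to 0.047 to 0.0723 CPM. This limit covers counting error only. The tissue label was checked with marker genes. Summed over 5 green leaf markers the levels were 34907 to 38734 CPM in PO, 35263 to 38617 CPM in TO and 36957 to 44233 CPM in DMSO, and summed over 7 root markers they were 3.91 to 6.90 CPM in PO, 3.80 to 8.15 CPM in TO and 3.72 to 5.21 CPM in DMSO. Guard cell markers (4 genes) summed to 35.1 to 84.7 CPM in PO, 62.0 to 88.7 CPM in TO and 59.6 to 95.6 CPM in DMSO, epidermis markers (2 genes) to 220 to 388 CPM in PO, 302 to 336 CPM in TO and 297 to 366 CPM in DMSO, and phloem companion cell markers (2 genes) to 88.4 to 175 CPM in PO, 116 to 175 CPM in TO and 103 to 127 CPM in DMSO. No marker passed the adjusted threshold in either comparison. In PO 3 of the 5 green leaf markers were lower at an unadjusted p under 0.05, where 6.16% of all loci passed in this direction. Without DMSO replicate 2 this held for 1 of the 5.

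The members fall into 18 stress-inducible ones, known to be transcribed rapidly after elicitors, wounding or touch, 6 linked to salicylate defence, and 22 others. Of the 46 members, 37 had a mean of at least 1 CPM over the 12 libraries and 44 passed the filter on low counts. WRKY38 (AT5G22570) and WRKY51 (AT5G64810), members linked to salicylate defence, did not pass it. WRKY38 had 0 to 3 counts and WRKY51 0 to 10 counts per library, so these members were not tested.

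Compared per kb of exon, WRKY22 (AT4G01250) was the most abundant member with a mean of 121 CPM per kb, followed by WRKY15 (75.9 CPM per kb), WRKY11 (53.5 CPM per kb), WRKY25 (42.8 CPM per kb) and WRKY53 (37.7 CPM per kb). WRKY7, WRKY6 and WRKY21 followed with 33.8, 33.0 and 27.0 CPM per kb. In PO shoots WRKY22 had 132 CPM per kb, in TO shoots 108 CPM per kb and in DMSO shoots 123 CPM per kb. WRKY22 acts in the MAP kinase cascade below the flagellin receptor. Of these 8 members, 6 are on the stress-inducible list and 4 belong to subgroup IId, whose proteins bind calmodulin. WRKY7 and WRKY6 differed by less than the spread between libraries. At the low end, WRKY31 had a mean of 0.278 CPM per kb, and among the tested members none was lower.

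Exons of 9 members overlap another locus on the opposite strand. The libraries were strand-specific, but the strand option of the counting is not given in the sources used here. The values of WRKY53 (311 overlapping bases), WRKY41 (491), WRKY29 (251), WRKY40 (51) and WRKY33 (26) could therefore hold reads of the neighbouring locus.

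The first question was whether either steroid changed the transcript levels of the listed members after 1 h. In TO shoots 1 of 44 tested members was called at an adjusted p under 0.05, and in PO shoots 0 of 44 (edgeR quasi-likelihood test with Benjamini-Hochberg adjustment over 23203 loci). Over all tested loci 0.284% were called in TO and 0.168% in PO. DESeq2 called 2 members in TO (WRKY31 and WRKY45) and 2 in PO (WRKY45 and WRKY55), where it called 1.16% and 1.40% of all loci. At an unadjusted p under 0.05 there were 10 of 44 members in TO, against 9.51% of all loci, and 9 of 44 in PO, against 12.1% of all loci. In TO these were 7 members with lower values and 3 with higher values than DMSO, where 4.87% and 4.64% of all loci passed in these directions. In PO they were 6 lower and 3 higher, where 6.16% and 5.96% of all loci passed. The plot of all 44 members shows each value with its interval.

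**Figure D1:**
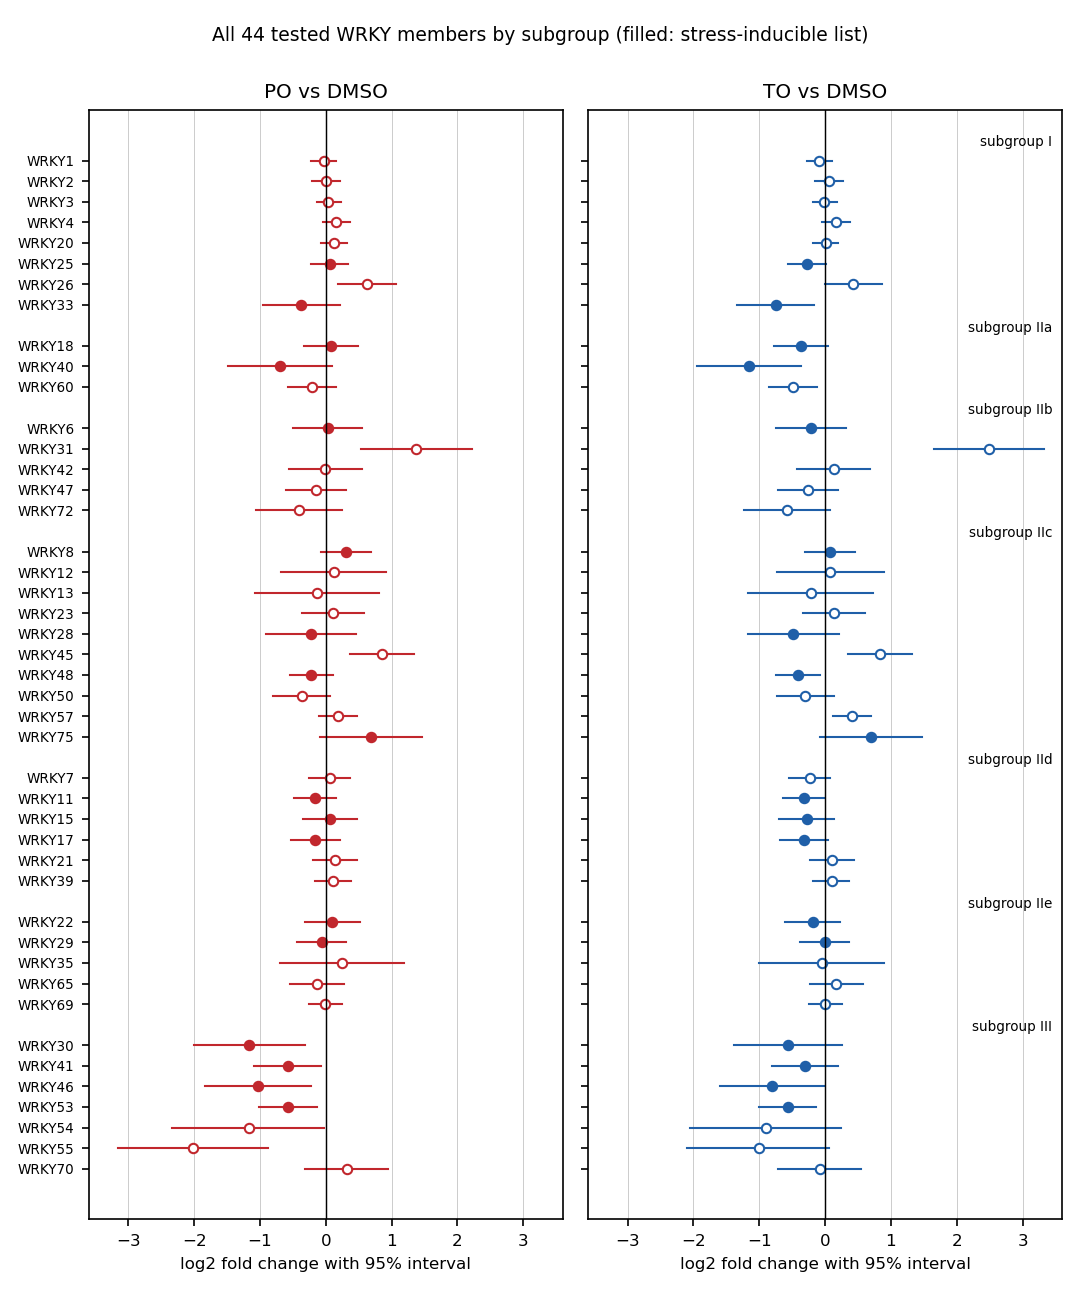
Log2 fold changes (x axis) of the 44 tested members (y axis, ordered by subgroup) in PO against DMSO (left) and TO against DMSO (right). Points are edgeR estimates, lines are 95% intervals, and filled points mark the 18 stress-inducible members. WRKY31 lies farthest to the right in TO (2.49), and 6 of the 7 tested members of subgroup III lie to the left of 0 in PO.

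WRKY31 (AT4G22070, chr4:11691172-11694590 in TAIR10.1, minus strand, subgroup IIb) rose in TO. This and every other direction rests on the sample labels, through which each column of counts was tied to its group, and no gene of known response was used to check them. The study lists WRKY31 among genes with reduced expression in steroid-treated shoots, the opposite direction. The sign was also opposite to the study's, at a similar size, for MYB15, CML37 and MPK11, which are on gene lists described below. The reason for this disagreement was not tested. WRKY31 had 0.948, 1.44, 1.06 and 1.00 CPM in the TO libraries, against 0.128, 0.282, 0.143 and 0.239 CPM in the DMSO libraries. Every TO library was above every DMSO library, which 2.90% of all loci showed. The counts behind these values were 49, 73, 44 and 52 in TO and 8, 14, 7 and 12 in DMSO, so the member is lowly expressed and its levels rest on few reads. The log2 fold change over DMSO (logFC) was 2.49 ± 0.39 (SE, as for each logFC), a 5.61-fold higher level with a 95% interval of 1.65 to 3.33 on the log2 scale (adjusted p = 0.0142 in edgeR, n = 4 each). Without DMSO replicate 1, DMSO replicate 3, TO replicate 2 or TO replicate 3 the adjusted p was 0.0554, 0.0616, 0.0589 and 0.0501, so the call was lost in these 4 fits while the logFC stayed between 2.32 and 2.51.

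In PO shoots WRKY31 had 0.321, 0.799, 0.330 and 0.596 CPM. These values also lay above all DMSO libraries, as did those of 2.85% of all loci, but the logFC of 1.37 ± 0.40 did not pass the threshold (adjusted p = 0.2185 in edgeR). The PO libraries of WRKY31 were all below its TO libraries. The other 4 members of subgroup IIb, among them WRKY6, a regulator of senescence and of phosphate transport, had logFC values of -0.58 to 0.13 in TO and of -0.41 to 0.03 in PO.

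**Figure D2:**
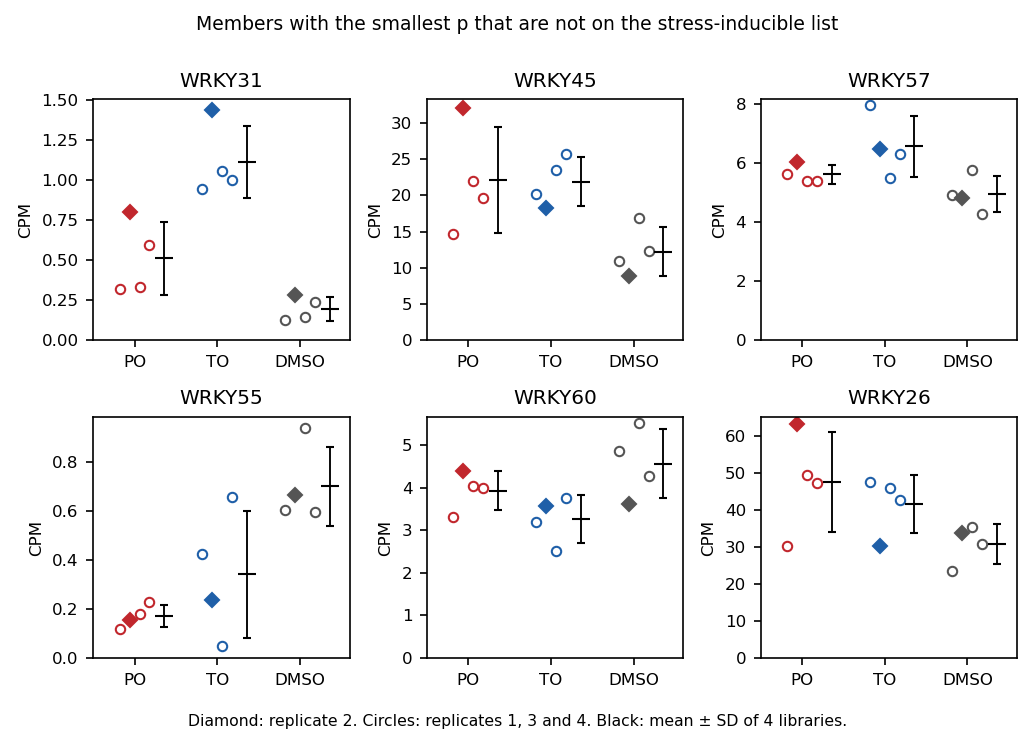
CPM (y axis, linear, starting at 0) of 6 members in PO, TO and DMSO libraries. Coloured points are libraries, with replicate 2 as a filled diamond, and black marks are means with SD (n = 4). For WRKY31 the TO points at 0.948 to 1.44 CPM stand above all PO and DMSO points, and for WRKY45 the TO points at 18.2 to 25.7 CPM stand above all DMSO points.

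WRKY45 (AT3G01970, chr3:325952-327412, subgroup IIc), which activates a phosphate transporter gene in roots, had the second smallest p in TO. It had 14.6, 32.1, 22.0 and 19.7 CPM in PO, 20.2, 18.2, 23.5 and 25.7 CPM in TO, and 10.9, 8.88, 16.9 and 12.3 CPM in DMSO. All TO libraries lay above all DMSO libraries, and in PO only replicate 1 fell within the DMSO range. The logFC was 0.84 ± 0.23 in TO and 0.85 ± 0.23 in PO, with adjusted p-values of 0.2011 and 0.1971 in edgeR. In DESeq2 the adjusted p-values were 0.0244 and 0.0211. WRKY75, which is also induced by phosphate starvation, had 1.72 ± 0.463 CPM in TO, 1.70 ± 0.956 CPM in PO and 1.07 ± 0.319 CPM in DMSO, with groups that overlapped.

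WRKY26 (AT5G07100) and WRKY57 (AT1G69310) were the other members with higher values at an unadjusted p under 0.05, WRKY26 in PO and WRKY57 in TO. WRKY26, which acts in heat tolerance with WRKY25 and WRKY33, had 30.2, 63.2, 49.5 and 47.2 CPM in PO, against 23.4, 33.9, 35.3 and 30.7 CPM in DMSO. Replicate 1 of PO was within the DMSO range, and the logFC was 0.63 ± 0.20 in PO (adjusted p = 0.2644 in edgeR) and 0.43 ± 0.20 in TO. WRKY57, known from drought tolerance, had 7.99, 6.48, 5.50 and 6.32 CPM in TO, against 4.93, 4.83, 5.76 and 4.28 CPM in DMSO, and its groups overlapped in 1 TO library (logFC 0.41 ± 0.13, adjusted p = 0.2969 in edgeR).

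Members of subgroup III, regulators of salicylate defence and leaf senescence, had the lowest median logFC of the 7 subgroups in PO. It was -1.03 in PO and -0.57 in TO over 7 tested members, against -0.01 and 0.00 over all tested loci. In PO 6 of the 7 had an unadjusted p under 0.05, all with lower values, and in TO 2 of 7, also lower. Of all loci 6.16% and 4.87% passed in this direction. In edgeR 0 of the 7 passed the adjusted threshold in either comparison. DESeq2 called 1 of the 7 in PO, WRKY55, where it called 1.40% of all loci, and 0 in TO. The subgroup was picked out after its values were seen. Without DMSO replicate 2 only 1 of the 7 had an unadjusted p under 0.05 in PO and 0 of 7 in TO, and the medians were -0.75 and -0.43.

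WRKY55 (AT2G40740), a member linked to senescence, had the smallest p in PO. Its levels were 0.120, 0.157, 0.181 and 0.229 CPM in PO, against 0.606, 0.664, 0.940 and 0.597 CPM in DMSO. Every PO library was below every DMSO library, as for 2.72% of all loci, and the logFC was -2.02 ± 0.53 with DMSO replicate 2 and -2.04 without it (adjusted p = 0.1952 and 0.2884 in edgeR). With all libraries the adjusted p in DESeq2 was 0.0239. In TO it had 0.425, 0.236, 0.0482 and 0.657 CPM, which overlapped with DMSO.

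WRKY46, which with WRKY54 and WRKY70 is known to act in brassinosteroid-regulated growth, had 1.52, 1.19, 0.726 and 1.33 CPM in PO, against 2.73, 3.38, 2.02 and 1.57 CPM in DMSO. It was the other member with all PO libraries below all DMSO libraries, with a logFC of -1.03 ± 0.37 (adjusted p = 0.3065 in edgeR) that was -0.83 without DMSO replicate 2. WRKY54 and WRKY70 were chosen after their values were seen. WRKY54 had a logFC of -1.17 ± 0.54 in PO and -0.90 ± 0.53 in TO. WRKY70 had a logFC of 0.32 ± 0.29 in PO and -0.08 ± 0.30 in TO, so the values of these 3 related members did not share a direction in PO. WRKY53 (AT4G23810, chr4:12392370-12393982), a regulator of leaf senescence, had 44.2, 41.3, 62.0 and 48.8 CPM in PO, 60.0, 40.2, 54.0 and 42.5 CPM in TO, and 90.4, 94.1, 56.5 and 50.8 CPM in DMSO. Here DMSO replicates 1 and 2 were both high, and the logFC was -0.57 ± 0.20 in each comparison and -0.43 in each without DMSO replicate 2.

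The 18 stress-inducible members had a median logFC of -0.32 in TO, where 16 of 18 had negative values, and -0.16 in PO, where 11 of 18 did. Over all tested loci the medians were 0.00 and -0.01, and 49.9% and 51.8% had negative values. At an unadjusted p under 0.05 there were 6 of 18 in TO and 4 of 18 in PO, all with lower values, where 4.87% and 6.16% of all loci passed in this direction, and 0 of 18 passed the adjusted threshold in either comparison. DESeq2 also called 0 of the 18 in both. The 22 remaining members, without the stress-inducible and salicylate-linked lists, had medians of 0.07 in TO and 0.08 in PO. The median over all 44 members was -0.20 in TO and 0.00 in PO.

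WRKY40 (AT1G80840, chr1:30383561-30385499), a repressor in defence and abscisic acid signalling, had the largest difference of the list in TO. It had 35.6, 9.32, 25.2 and 20.6 CPM in TO, 28.8, 23.3, 40.7 and 31.9 CPM in PO, and 47.2, 86.8, 41.6 and 27.0 CPM in DMSO. TO replicate 2 was the lowest and DMSO replicate 2 the highest of the 12 libraries, and the groups overlapped. The logFC was -1.16 ± 0.37 in TO (adjusted p = 0.2825 in edgeR) and -0.70 ± 0.37 in PO (adjusted p = 0.4592). Its partners in subgroup IIa, WRKY18 and WRKY60, had logFC values of -0.37 ± 0.19 and -0.48 ± 0.17 in TO, and 0.08 ± 0.19 and -0.21 ± 0.17 in PO. WRKY18 was the only stress-inducible member that was lower in DMSO replicate 2 than in the mean of the other DMSO libraries.

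WRKY33 (AT2G38470, chr2:16108235-16110766), required for camalexin synthesis and resistance to necrotrophic fungi, had 51.4, 57.4, 48.7 and 47.5 CPM in PO and 51.0, 25.0, 39.1 and 42.2 CPM in TO, against 41.5, 115, 58.1 and 50.5 CPM in DMSO. DMSO replicate 2 had the highest value of the 12 libraries, and all PO values lay within the range of the other 3 DMSO libraries. With all libraries the logFC was -0.75 ± 0.27 in TO (unadjusted p = 0.0151) and -0.37 ± 0.27 in PO. Without DMSO replicate 2 it was -0.35 in TO (unadjusted p = 0.0833) and 0.04 in PO. WRKY25, its close relative in subgroup I, had 82.8 ± 11.8 CPM in PO, 65.6 ± 8.08 CPM in TO and 79.6 ± 13.7 CPM in DMSO.

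The calmodulin-binding members of subgroup IId were among the most abundant. WRKY15 (AT2G23320, chr2:9924886-9926372), linked to oxidative and osmotic stress, had 85.0, 115, 124 and 102 CPM in PO and 95.1, 70.7, 85.8 and 83.7 CPM in TO, against 71.2, 152, 92.3 and 92.6 CPM in DMSO. Its logFC was 0.06 ± 0.19 in PO and -0.28 ± 0.19 in TO, and 0.32 and -0.03 without DMSO replicate 2. WRKY11 and WRKY17, negative regulators of basal resistance, had logFC values of -0.32 ± 0.15 and -0.32 ± 0.17 in TO and of -0.16 ± 0.15 and -0.16 ± 0.17 in PO. WRKY7 had 0.06 in PO and -0.23 in TO, and WRKY21 0.14 in PO and 0.11 in TO.

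In the MAP kinase branch, WRKY22 had 117, 157, 227 and 199 CPM in PO, 160, 120, 173 and 117 CPM in TO, and 144, 204, 136 and 169 CPM in DMSO. The 3 groups overlapped, and the logFC was 0.10 ± 0.20 in PO and -0.19 ± 0.20 in TO. WRKY29, which acts beside WRKY22, had 30.1 ± 5.39 CPM in PO, 31.3 ± 4.98 CPM in TO and 31.4 ± 7.46 CPM in DMSO, so no difference larger than the spread between libraries was seen.

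WRKY6 had 66.9, 68.7, 108 and 80.3 CPM in PO, 80.6, 40.9, 78.7 and 75.3 CPM in TO, and 69.5, 121, 68.0 and 60.1 CPM in DMSO. TO replicate 2 was low and DMSO replicate 2 high, with the other libraries of these groups close together. WRKY28 (AT4G18170, chr4:10061214-10062893), an activator of salicylic acid synthesis, had 6.98, 12.7, 15.0 and 11.2 CPM in PO and 10.7, 7.72, 9.88 and 10.3 CPM in TO, against 10.8, 25.3, 10.5 and 7.21 CPM in DMSO. Its ratio of DMSO replicate 2 to the mean of the other DMSO libraries, 2.67, was the highest of the 44 tested members. WRKY30, which responds to oxidative stress, had 0.441, 0.376, 0.577 and 0.596 CPM in PO, against 1.15, 1.95, 0.449 and 0.896 CPM in DMSO. Its groups overlapped through DMSO replicate 3, and the logFC in PO was -1.16 ± 0.39 with all libraries and -0.75 without DMSO replicate 2.

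Among the remaining stress-inducible members, WRKY48, a negative regulator of basal resistance, had 15.7 ± 2.2 CPM in TO and 20.9 ± 3.5 CPM in DMSO (logFC -0.41 ± 0.15, unadjusted p = 0.0172). WRKY41 had a logFC of -0.58 ± 0.24 in PO and -0.31 ± 0.24 in TO. WRKY8, known from salt tolerance, had 0.30 ± 0.18 in PO and 0.08 ± 0.18 in TO.

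**Figure D3:**
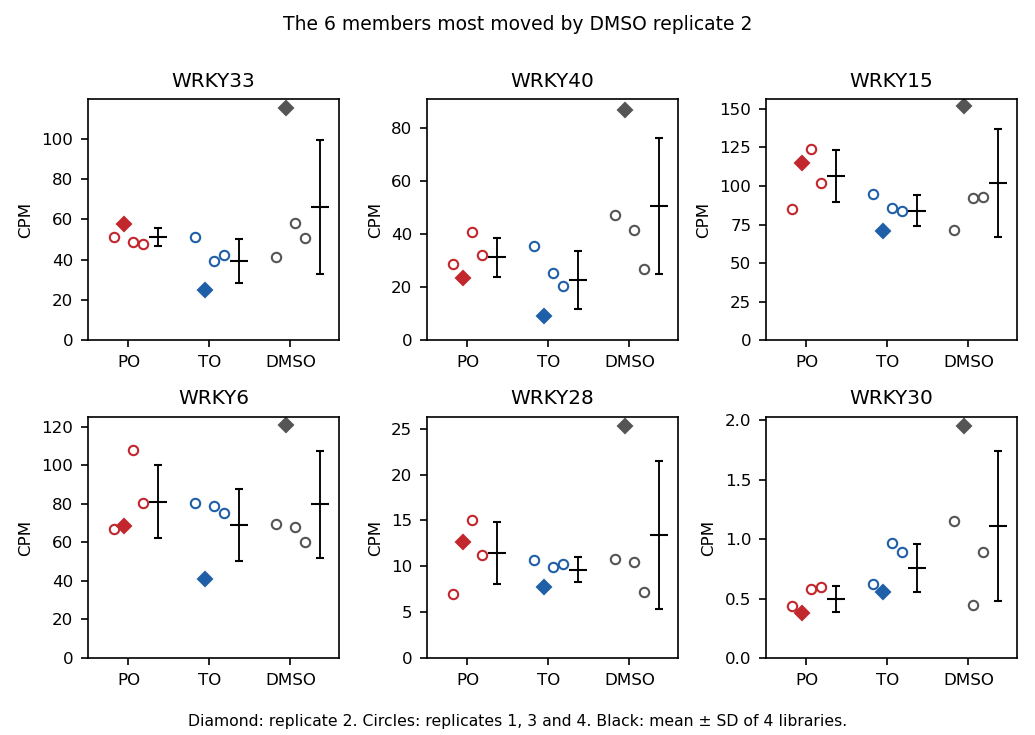
CPM (y axis, linear, starting at 0) of the 6 members whose logFC in TO moved most when DMSO replicate 2 was left out, in PO, TO and DMSO libraries. Diamonds are replicate 2, circles the other replicates, and black marks means with SD (n = 4). The DMSO diamond is the highest point of each panel, with 115 CPM for WRKY33 and 152 CPM for WRKY15.

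The dependence on DMSO replicate 2 was then followed over the listed members. This library was the highest of the 4 DMSO libraries for 23 of the 44 tested members (52.3%), and for 14 of the 18 stress-inducible members (77.8%), against 25.7% of all tested loci. Its level was above the mean of the other 3 DMSO libraries for 17 of the 18 stress-inducible members, with a median ratio of 1.37 over the 18. For the other 26 tested members the median ratio was 0.989, the same as over all tested loci. The summed level of the 18 stress-inducible members was 1173 CPM in DMSO replicate 2 and 733 to 802 CPM in the other DMSO libraries, while it was 679 to 970 CPM in PO and 549 to 762 CPM in TO. The total count and the TMM factor of DMSO replicate 2 lay within the range of the other libraries.

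TO replicate 2, picked out after its values were seen, lay at the other end. It was the lowest TO library for 12 of the 18 stress-inducible members (66.7%) and for 17 of all 44 (38.6%), against 26.0% of all tested loci. Without it the median logFC of the stress-inducible members in TO was -0.28.

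Without DMSO replicate 2 the median logFC of the 18 stress-inducible members was -0.17 in TO and -0.03 in PO, compared with -0.32 and -0.16 with all libraries. The logFC moved up for 17 of the 18 in each comparison and down for WRKY18 alone. These directions follow from the level of each member in DMSO replicate 2 and are no further result. The number with an unadjusted p under 0.05 was 2 in TO, WRKY40 and WRKY18, and 1 in PO, WRKY15, which then had a higher value than DMSO. WRKY33, WRKY53, WRKY48, WRKY46 and WRKY11 no longer had an unadjusted p under 0.05 in TO, nor did WRKY53, WRKY46, WRKY41 and WRKY30 in PO. Over all 44 members the numbers were 7 in TO and 6 in PO, where 8.67% and 10.9% of all loci passed. WRKY31, WRKY45, WRKY40, WRKY57 and WRKY60 passed in TO with and without this library, and WRKY31, WRKY45, WRKY26 and WRKY55 in PO. No member with all TO libraries below all DMSO libraries was found, where 2.48% of all loci had this order.

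**Figure D4:**
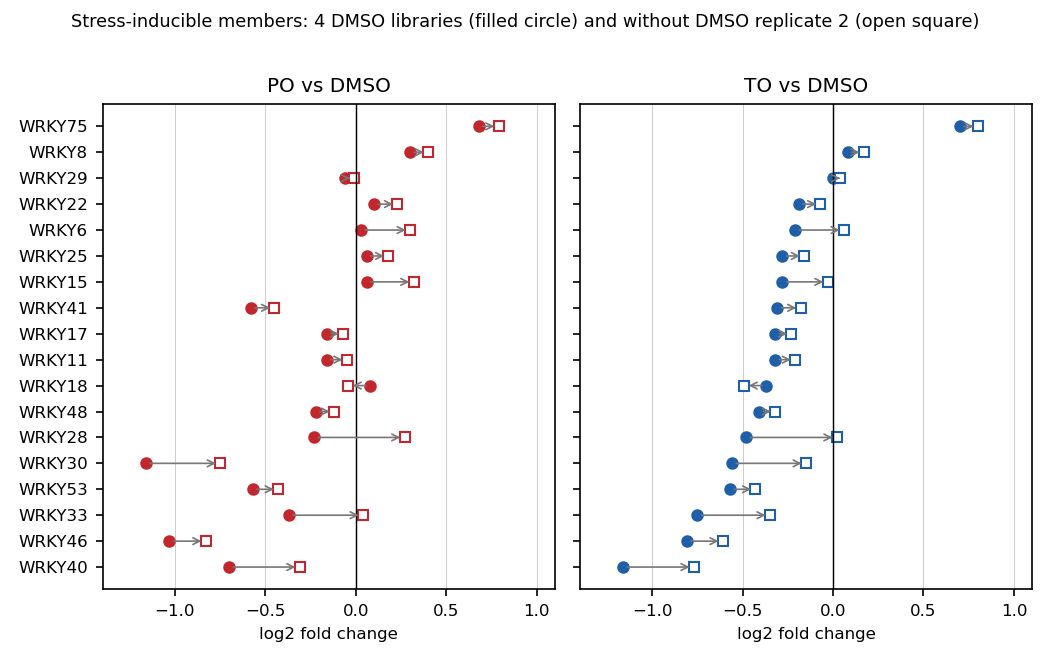
Log2 fold changes (x axis) of the 18 stress-inducible members (y axis) in PO against DMSO (left) and TO against DMSO (right). Filled circles use all 4 DMSO libraries, open squares leave out DMSO replicate 2, and arrows join them. For 17 of the 18 members the arrow points to the right, which follows from their higher level in DMSO replicate 2. The median in TO is -0.32 with all libraries and -0.17 without DMSO replicate 2.

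Genes of other rapid stress responses were followed in the same libraries as a list of 18, all tested. The list was chosen with earlier results of these data known, so it is no independent check. DMSO replicate 2 was the highest DMSO library for 15 of the 18, against 25.7% of all tested loci, and the median ratio to the other DMSO libraries was 1.83. The summed level of the list was 1762 CPM in DMSO replicate 2 and 809 to 971 CPM in the other DMSO libraries, with 917 to 1151 CPM in PO and 474 to 903 CPM in TO. The lowest sum was that of TO replicate 2. DMSO replicate 2 was thus the highest and TO replicate 2 the lowest library for the medians of both the stress-inducible WRKY members and this list, while the other libraries did not keep 1 order, as the plot of library medians shows. DMSO replicate 1, for example, stood at 0.02 for the WRKY members and at -0.39 for the list. The part of the list's values in the WRKY differences was not tested.

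At an unadjusted p under 0.05 in edgeR, 7 of the 18 rapid stress-response genes were lower and 1 higher in TO. In PO 2 were lower and 1 higher. Of all loci 4.87% in TO and 6.16% in PO passed with lower values. Without DMSO replicate 2 there were 4 lower and 1 higher in TO, and 1 lower and 3 higher in PO. Of this list, 1 gene was called lower in TO and 0 in PO, where 0.284% and 0.168% of all loci were called. This was MYB15, a regulator of lignin and cold responses, with 1.40 to 6.08 CPM in TO and 12.0 to 33.7 CPM in DMSO (logFC -2.29 ± 0.40, adjusted p = 0.0262 in edgeR). It stayed called without DMSO replicate 2 (adjusted p = 0.0411). The study lists MYB15 with enhanced expression in steroid-treated shoots, the opposite direction. It also lists CML37, of the same list, and MPK11, of the MAP kinase genes below, as enhanced. Here CML37 had logFC values of -1.98 in TO and -1.49 in PO, and MPK11 -2.03 and -1.44. As for WRKY31, the sizes were similar to the study's and the signs were reversed, and the reason was not tested. The 3 genes of the list with the highest mean level were TCH3, ERF104 and SZF1. TCH3, a touch-induced calmodulin-like gene, had logFC values of -0.73 in TO and -0.15 in PO, and -0.36 and 0.23 without DMSO replicate 2. SZF1, a zinc-finger gene of salt stress, had -0.72 in TO and -0.20 in PO, and -0.44 and 0.08 without DMSO replicate 2. ERF104, an ethylene response factor released by MPK6, had 0.19 in TO and 0.66 in PO.

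**Figure D5:**
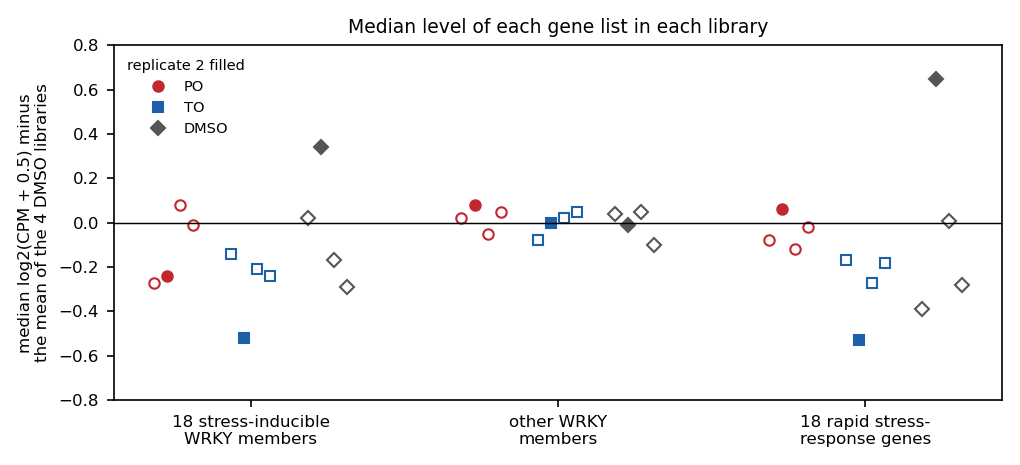
Median over each gene list (x axis) of log2(CPM + 0.5) minus the mean of the 4 DMSO libraries (y axis, log2 units), 1 point per library, with replicate 2 filled. DMSO replicate 2 stands at 0.34 for the stress-inducible WRKY members and at 0.65 for the rapid stress-response genes, and TO replicate 2 at -0.52 and -0.53. The 26 other WRKY members stay between -0.10 and 0.08 in all libraries.

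The steps above and below the WRKY proteins were counted as well. Of 9 genes of the MAP kinase cascade 0 were called in either comparison, where 0.284% of all loci were called in TO and 0.168% in PO. DMSO replicate 2 was the highest DMSO library for all 9, against 25.7% of all tested loci. At an unadjusted p under 0.05 in edgeR, 3 of the 9 were lower in TO and 1 in PO. Of all loci 4.87% and 6.16% passed in this direction. Without DMSO replicate 2, 2 of the 9 were lower in TO, and 1 was higher in PO. The median logFC of the 9 genes was -0.14 in TO and -0.02 in PO. Of 4 WRKY-binding VQ proteins and of 2 receptors, FLS2 and BAK1, 0 were called in either comparison, with medians of -0.03 and -0.17 in TO and -0.15 and -0.08 in PO. At an unadjusted p under 0.05 in edgeR, 1 of the VQ proteins was lower in TO and 2 in PO, and 0 of the receptors passed. Of all loci 4.87% in TO and 6.16% in PO passed with lower values. DMSO replicate 2 was the highest DMSO library for all 4 VQ proteins and for the 2 receptors. Of 6 tested genes of the salicylic acid axis 0 were called, with medians of -0.47 in TO and -0.13 in PO, and of -0.32 and 0.04 without DMSO replicate 2. DMSO replicate 2 was the highest DMSO library for 4 of the 6. With all libraries 3 of the 6 were lower in TO at an unadjusted p under 0.05, and 1 was lower and 1 higher in PO. Of all loci 4.87% were lower in TO, and 6.16% were lower and 5.96% higher in PO, at such a p. Without DMSO replicate 2 there were still 3 lower in TO, and 1 lower in PO. In that fit 8.67% of all loci passed in TO in either direction. Of 10 tested known WRKY targets 1 was called lower in TO and 0 in PO, and the medians were 0.13 and -0.09. DMSO replicate 2 was the highest DMSO library for 5 of these 10. Without DMSO replicate 2 the PO medians also turned positive for the MAP kinase genes (0.04), the receptors (0.07) and the known targets (0.09), while that of the VQ proteins was -0.08. In TO they were -0.09 for the MAP kinase genes, -0.02 for the receptors, 0.16 for the known targets and 0.04 for the VQ proteins. The called gene was ACS6, an ethylene synthesis gene activated by WRKY33, with 7.12, 5.59, 5.52 and 6.45 CPM in TO, against 12.0, 19.4, 10.2 and 10.9 CPM in DMSO. All TO libraries were below all DMSO libraries (logFC -1.09 ± 0.20, adjusted p = 0.0364 in edgeR), also without DMSO replicate 2 (logFC -0.85, adjusted p = 0.0411).

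Progesterone and testosterone share the steroid skeleton and differ in the group on the D ring, an acetyl side chain in progesterone and a hydroxyl group in testosterone. They were given at the same dose and time, and this pair was the only pair of compounds compared. In PO against TO 0 of 44 members were called by edgeR and 0 by DESeq2, as over all loci in edgeR (0.00%), and 3 of 44 had an unadjusted p under 0.05, against 7.68% of all loci. These were WRKY31 with a logFC of -1.11 (95% interval -1.89 to -0.34), WRKY25 with 0.34 (0.05 to 0.62) and WRKY18 with 0.45 (0.03 to 0.86), with adjusted p-values of 0.6283, 0.6301 and 0.6413 in edgeR. WRKY25 had 68.9, 77.8, 95.2 and 89.3 CPM in PO and 73.0, 54.8, 64.3 and 70.3 CPM in TO, and WRKY18 31.6, 30.7, 21.9 and 25.3 CPM in PO and 15.7, 16.3, 20.3 and 28.0 CPM in TO. The PO and TO libraries did not overlap for 1 of 44 members, WRKY31, against 4.15% of all loci. For WRKY45 the difference was 0.01 with an interval of -0.46 to 0.49, for WRKY40 0.46 with -0.33 to 1.25, for WRKY33 0.38 with -0.20 to 0.96 and for WRKY53 0.00 with -0.44 to 0.43. The median over the 18 stress-inducible members was 0.21, with higher values in PO for 12 of the 18, and 0.06 over all 44. An adjusted p above the threshold does not show that the steroids act alike.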

How the data were processed

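Counts of reads per locus from 12 libraries of leaves were used as the authors deposited them. The submitters' processing notes name bcl2fastq 2.20, FastQC 0.11.9, fastp 0.23.2, HISAT2 2.2.1, SAMtools 1.11 and featureCounts 2.0.1, and the build is TAIR10.1. The strand option of the counting is not given in the sources used here. Total counts were 41036335 to 63445014 per library. Groups were taken from the sample labels.

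Loci were kept with filterByExpr (minimum count 10), which left 23203, and tested in edgeR 4.0.16 (R 4.3.3, limma 3.58.1) with TMM factors, 1 term per group over all 12 libraries and the quasi-likelihood test with Benjamini-Hochberg adjustment over all tested loci and a threshold of 0.05. The common biological coefficient of variation was 0.181. A logFC is a log2 fold change, and intervals are at 95%. Summaries and figures used Python 3.11.15, numpy 2.4.6, pandas 2.3.3, scipy 1.17.1 and matplotlib 3.10.9. The fit was also run on simulated counts without an outlying library, which says nothing on the dependence on single libraries. The alternatives were RLE size factors, DESeq2 1.42.0, no filter beyond 1 count, fits of only the groups compared, a replicate block, and leaving out each library. Every annotated WRKY locus was also taken in place of the members. Leaving out DMSO replicate 2 and TO replicate 2 together was chosen after seeing the data.

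The members and gene lists were chosen with earlier results of these data known. Members were named if called, stress-inducible, among the 8 highest per kb, among the 6 that moved most without DMSO replicate 2, or among the 5 with the smallest p in each comparison, and so was WRKY31.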

Additional observations from a re-analysis of the deposited data

Results flagged for a closer look

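In each group of 4 libraries the highest and lowest value of each tested member was compared with the others, by its gap to the nearest library as a share of the group's range. Of 132 groups 11 had a library that stood far from the other 3 by this measure. For independent, normally distributed values chance gives about 1 in 20 groups. CPM of members measured in the same 12 libraries need not meet this, so no excess over chance is read from the 11. Values are in CPM.

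WRKY6 had 40.9 CPM in TO replicate 2, against 75.3 to 80.6 CPM in the other TO libraries, and 121 CPM in DMSO replicate 2, where replicates 1, 3 and 4 had 60.1 to 69.5 CPM. WRKY7 had 50.3 CPM in TO replicate 2, with 67.2 to 69.5 CPM in the others. WRKY39 had 54.7 CPM in DMSO replicate 2, with 39.3 to 41.7 CPM in the others. These 4 groups are those in which replicate 2 of TO was low or replicate 2 of DMSO was high.

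In the other libraries, WRKY23 had 2.57 CPM in PO replicate 2, with 1.56 to 1.58 CPM in the other PO libraries. WRKY35 had 0.869 CPM in TO replicate 4, with 0.386 to 0.445 CPM in the others, and 1.07 CPM in DMSO replicate 1, with 0.322 to 0.429 CPM in the others. WRKY42 had 2.84 CPM in TO replicate 4, with 2.02 to 2.13 CPM in the others. WRKY54 had 0.722 CPM in PO replicate 1, with 0.157 to 0.229 CPM in the others, and 0.579 CPM in TO replicate 4, with 0.289 to 0.329 CPM in the others. WRKY65 had 4.97 CPM in TO replicate 1, with 9.62 to 10.3 CPM in the others.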

How the results depend on the processing

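With DESeq2, 2 members were called in PO and 2 in TO, compared with 0 and 1 by edgeR. Taking every annotated WRKY locus in place of the members, of which 57 were tested, 0 were called in PO and 1 in TO by edgeR. Of these loci 9 in PO and 12 in TO had an unadjusted p under 0.05, where 12.1% and 9.51% of all tested loci passed with all libraries. Leaving out each library in turn gave 0 to 1 called members in TO, 6 to 10 members with an unadjusted p under 0.05 in PO and 7 to 13 in TO, a median logFC of -0.26 to -0.07 over all members in TO, and of -0.40 to -0.17 in TO and -0.29 to -0.03 in PO over the stress-inducible members. In the fit without DMSO replicate 2, which gave the 6 in PO and the 7 in TO, 10.9% and 8.67% of all loci passed. Without DMSO replicate 2 and TO replicate 2 together, 0 members were called in TO. In that fit 6 had an unadjusted p under 0.05, where 8.08% of all loci passed. The median logFC was then -0.04 over all members and -0.12 over the stress-inducible ones.

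Of the 26 members chosen by the naming rule, the sign of the logFC turned in at least 1 fit that left out a library for WRKY6 (-0.14 to 0.30 in PO, -0.32 to 0.06 in TO), WRKY7 (-0.04 to 0.16 in PO), WRKY8 (-0.04 to 0.17 in TO), WRKY15 (-0.07 to 0.32 in PO), WRKY18 (-0.04 to 0.17 in PO), WRKY22 (-0.05 to 0.25 in PO), WRKY25 (-0.02 to 0.18 in PO), WRKY28 (-0.43 to 0.27 in PO, -0.69 to 0.02 in TO), WRKY29 (-0.16 to 0.09 in PO, -0.10 to 0.14 in TO) and WRKY33 (-0.54 to 0.04 in PO). It also turned for WRKY70 (-0.30 to 0.28 in TO) and for other members outside that rule. Without both replicates 2 the logFC was 0.24 for WRKY6, 0.04 for WRKY15, 0.00 for WRKY22 and 0.11 for WRKY28 in TO, and -0.04 for WRKY18, 0.27 for WRKY28 and 0.04 for WRKY33 in PO. The cause was not tested.

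Whether replicate numbers pair the libraries was not settled. Of 12 same-numbered pairs 5 correlated over 0.1 (-0.17 to 0.29), and 4 of 12 libraries correlated best with their own number. The pairs of replicate 4 had 0.16, 0.28 and 0.18, while PO replicate 1 and TO replicate 2 had 0.33. With the replicate number as a block, 0 members were called in PO and 1 in TO, with an unadjusted p under 0.05 for 10 and 11. Without the block 12.1% and 9.51% of all loci had such a p. With the block WRKY31 had a logFC of 2.53 in TO, and WRKY29 had 0.01 in TO. Of 936 values of named members under an alternative, 897 kept their sign and their side of the threshold, and WRKY31 lost its call in TO in 5. Members at a few reads per library, such as WRKY31, rest on the fewest counts.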
